A study of Rattus norvegicus with 6 samples.

Results

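The cytosolic ribosomal protein genes described here were 50 of the 14217 rat genes that the array measured with a probe set assigned to a single symbol. They were taken by symbol: names starting with Rpl or Rps and a number, with Rplp0 and Rpsa, and without the S6 kinase genes, whose symbols also start with Rps6. A probe set is a group of short oligonucleotides that together measure a transcript, and where a gene had several, the one with the highest mean over the 6 arrays was used. Of the 50 genes, 42 encode core proteins of the ribosome, 29 of the large and 13 of the small subunit. Another 6 are related genes (Rpl26l1, Rpl39l1, Rpl3l, Rpl7l1, Rps27l and Rps4y2) and 2 are annotated pseudogenes (Rpl37-ps2 and Rps4x-ps1). A further 36 probe sets carry several symbols with a ribosomal protein among them and were not counted as members.

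The cytosolic ribosome is built in the nucleolus from ribosomal RNA and a fixed set of proteins, each needed in a matching amount. In mammals most of these proteins are encoded by transcripts that begin with a cytidine followed by a run of pyrimidines, the 5′ terminal oligopyrimidine (TOP) tract, through which the kinase mTOR and the RNA-binding protein LARP1 control their translation. Ribosome production is a main cost of cell growth, and transcripts of ribosomal proteins are among the most abundant of a proliferating cell.

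RK3E is an immortalised rat kidney epithelial line that can be transformed by single oncogenes. The GLI1 arrays come from RK3E cells transfected with a GLI1 expression construct by Lipofectamine 2000, which formed foci that were picked singly and kept in culture. GLI1, a DNA-binding protein with zinc fingers, carries Hedgehog signals into the nucleus. Of the 4 GLI1 arrays, 1 names no clone, 1 is from clone I and 2 are from clone II, and the other 2 arrays are from parental RK3E cells. All cells were grown in DMEM with serum, each GLI1 line grew from a single focus, the labels give neither the promoter of the construct nor a vector for the parental cells. The labels call the arrays of a group biological replicates but do not say that they were separate cultures, so p-values measure the spread between these arrays, which may be technical in part.

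The values are MAS5 signals on a linear scale, scaled so that every array has a trimmed mean between 2500.68 and 2500.76. The rat Gli1 probe set read 9092, 3356, 3500 and 4611 on the GLI1 arrays, against 36 and 90.8 on the parental arrays. Of the 8 epithelial markers examined, 3 passed the filter on low values (Epcam, Ocln and Krt8), and Krt18, Krt19 and Cdh1 did not on these probe sets. The 8 epithelial markers summed to between 2217 and 11899 on the GLI1 arrays and between 5155 and 5708 on the parental arrays, so these sums overlapped. The 7 fibroblast markers, 4 of which passed the filter, summed to between 4270 and 15773 on the GLI1 arrays. Their parental sums were between 104099 and 115478. Of the 5 immune markers 1 passed the filter, so their sums are mostly of low values. They were between 714 and 1517 on the GLI1 arrays and between 2136 and 2674 on the parental arrays. Of the 5 endothelial markers, 0 passed the filter. No marker was listed at 0, and the part of these cell type markers in the ribosomal protein values was not tested. In RNA from whole cultures, fewer cells of a type and less RNA per cell cannot be told apart, and because each array was scaled to its own total, a change shared by all transcripts would not show.

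The first bases of a few of these genes show the tract named above. Each window below covers 15 bases before the first base of the RefSeq transcript and 15 bases from it on, 5′ to 3′ on the gene's strand in the GRCr8 build, and capitals mark a C followed by 4 or more bases that are each C or T. Where several such stretches start within 10 bases of that first base, the one that starts nearest to it is marked. Rpl4 and Rpl35 are shown because their signal rose in the GLI1 arrays, Rplp0 and Rps9 because their signals differed between replicates, and Rpl39l1, beside its relative Rpl39, because its difference without the filter was the largest of the 50 genes.
Rpl4, chr8:73566462-73566491, plus strand: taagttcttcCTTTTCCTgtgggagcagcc
Rpl35, chr3:43165907-43165936, minus strand: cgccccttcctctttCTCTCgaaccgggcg
Rplp0, chr12:46718376-46718405, minus strand: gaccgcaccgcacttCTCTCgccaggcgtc
Rps9, chr1:74430423-74430452, minus strand: tccggcggccacgtttCTCTTTgtcacggg
Rpl39, chrX:121195882-121195911, minus strand: tcttctaatcgcgttCTTCCggcctgtcct
Rpl39l1, chr10:5966607-5966636, minus strand: actgccaggccgtcccgctatcctggtgtg
The marked stretch started at the annotated first base in Rpl35, Rplp0 and Rpl39, 5 bases before it in Rpl4 and 1 base after it in Rps9, and none was found within 10 bases in Rpl39l1. In Rpl4, Rpl35 and Rplp0 it lies inside a longer run of C and T that holds further matches upstream.

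The RefSeq promoter table held 43 of the 50 genes. A tract of these letters on the gene's strand started exactly at the annotated first base in 12 of the 43 genes (27.9%), against 2.63% of all 33469 promoters in the table. Within 10 bases on either side it was found in 29 of 43 (67.4%), against 28.9% of all promoters. Among the 37 core genes in the table the shares were 32.4% at the first base and 70.3% within 10 bases. For 25 of the 43 genes the first base used was the outermost annotated start of the gene, and for the others it lay inside, so a missing tract says only that these letters are not in that window.

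The core genes were among the brightest features on the array. Of the 42, 38 had mean signals between 21924 and 126350, which placed them between percentile 97.5 and percentile 99.99 of all probe sets, and they are called the bright core genes below. The brightest were Rpl26, Rps23, Rpl7a and Rpl35a. Rpl26, a large-subunit protein, had signals of 150185, 135360, 141123 and 119220 on the GLI1 arrays (no clone named, clone I, clone II replicate 1 and clone II replicate 2), against 94158 and 126337 on the parental arrays (replicate 1 and replicate 2). Rps23, which sits at the decoding centre, read 147458, 136358, 147940 and 110306 in the same order, against 99345 and 120087. For both genes the clone II replicate 2 array lay below the parental replicate 2 array, so the groups overlapped.

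The other 4 core genes, Rpl28, Rpl30, Rpl39 and Rps13, had mean signals between 411 and 1431. Signals of different probe sets depend on their oligonucleotides, so the order above is one of brightness and not of transcript number. The bright core genes together held 3.59%, 3.31%, 2.91% and 2.96% of all signal on the GLI1 arrays, against 2.02% and 2.82% on the parental arrays. The lowest share was that of parental replicate 1, and the other parental array lay below all 4 GLI1 arrays by a small margin. The smallest standard deviations over the 6 arrays among the 50 genes were those of Rpl27a (0.19 on the log2 scale), Rpl30 (0.21), Rps29 (0.24) and Rps23 (0.24), and the largest those of Rpl39l1 (2.11), Rps4x-ps1 (1.70), Rpl3l (1.43) and Rpl24 (1.32).

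**Figure D1:**
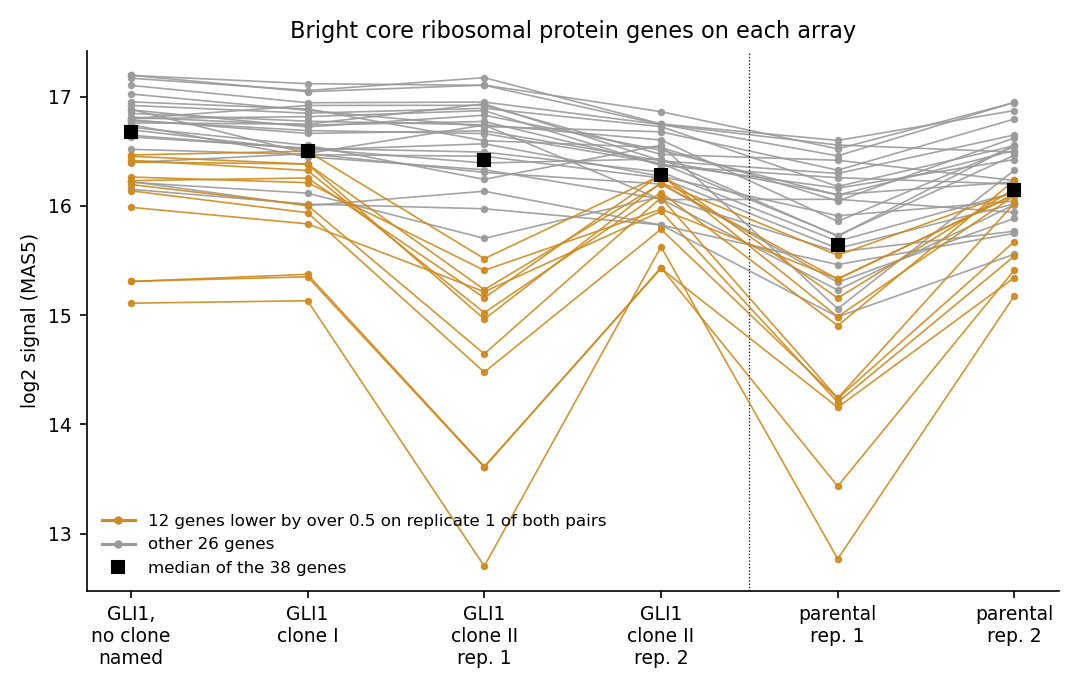
Log2 MAS5 signal of the 38 bright core genes on each of the 6 arrays, with a line for each gene and black squares for the median of the 38. Orange lines are the 12 genes that were lower by more than 0.5 on replicate 1 than on replicate 2 in both clone II and parental cells, and the median is lowest on parental replicate 1 (15.64).

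The main question of the study's design is how expression in GLI1-transformed cells differs from that in the parental line. In the comparison of all 4 GLI1 arrays with both parental arrays, 3 ribosomal protein genes rose, 0 fell and 43 were not called among the 46 that passed the filter on low values. The background was 5.84% of all 18625 probe sets tested called higher, and 7.25% called lower, so 3 of 46 is near the share called higher over the whole array. The genes that rose were Rpl7, Rpl4 and Rpl35, all of the large subunit. A call is an adjusted p under 0.05 from limma, a linear model with a spread estimate shared over all probe sets. The Benjamini-Hochberg adjustment was over all probe sets tested. The 4 GLI1 arrays entered as separate units, though 2 are of clone II and the line of the array with no clone named is unknown. The p-values therefore do not measure the spread between independent GLI1 lines.

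Rpl7, a protein of the large subunit, had signals of 86359, 91360, 81097 and 75339 on the GLI1 arrays (in the order above), against 40377 and 60623 on the parental arrays. All GLI1 values lay above both parental values, and the difference was 0.75 on the log2 scale (SE 0.19), which is 1.68-fold, with an adjusted p of 0.0322 in limma. A dimmer probe set of Rpl7 read 4427.1, 4792.5, 6894.1 and 3445.5 on the GLI1 arrays, against 3982.1 and 3109.3 on the parental arrays. On that probe set the groups overlapped, and the difference was 0.43 (SE 0.28, limma adjusted p 0.350). Rpl4, which lines the tunnel through which the new protein leaves the ribosome, read 72870, 66328, 64392 and 58140 on the GLI1 arrays, against 32450 and 48264 on the parental arrays. The Rpl4 groups did not overlap, and the difference was 0.72 (SE 0.19, limma adjusted p 0.0393), or 1.65-fold. Rpl35, at the exit of the same tunnel, read 93911, 90769, 89865 and 78268 on the GLI1 arrays, against 50063 and 66440 on the parental arrays. The difference was 0.61 (SE 0.17, limma adjusted p 0.0448), or 1.53-fold.

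On the probe sets called, the lower parental value of all 3 genes was that of replicate 1. With parental replicate 1 left out, the log2 differences in limma were 0.46 for Rpl7 (adjusted p 0.288), 0.43 for Rpl4 (adjusted p 0.329) and 0.41 for Rpl35 (adjusted p 0.344), and 0 of 46 genes were called, with 1.22% of all probe sets still called higher. Leaving out the clone I array, or clone II replicate 1, also ended all 3 calls.

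Most of the differences had the same direction. Of the 46 genes tested, 43 had a positive log2 difference (93.5%), against 50.3% of all probe sets, and the median was 0.44, or 1.35-fold, against a median of 0.00468 over all probe sets. All 38 bright core genes had a positive difference, from 0.16 for Rpl27a to 0.87 for Rpl11, with a median of 0.47. Before adjustment, 18 of the 46 genes had a p under 0.05 and a positive difference (39.1%), against 14.2% of all probe sets. All 4 GLI1 arrays lay above both parental arrays for 17 of the 46 genes, and over the whole array for 19% of probe sets. These counts describe genes read from the same 6 arrays, so they are not separate pieces of evidence. Without parental replicate 1 the median was 0.18, and 31 of the 46 differences were positive.

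**Figure D2:**
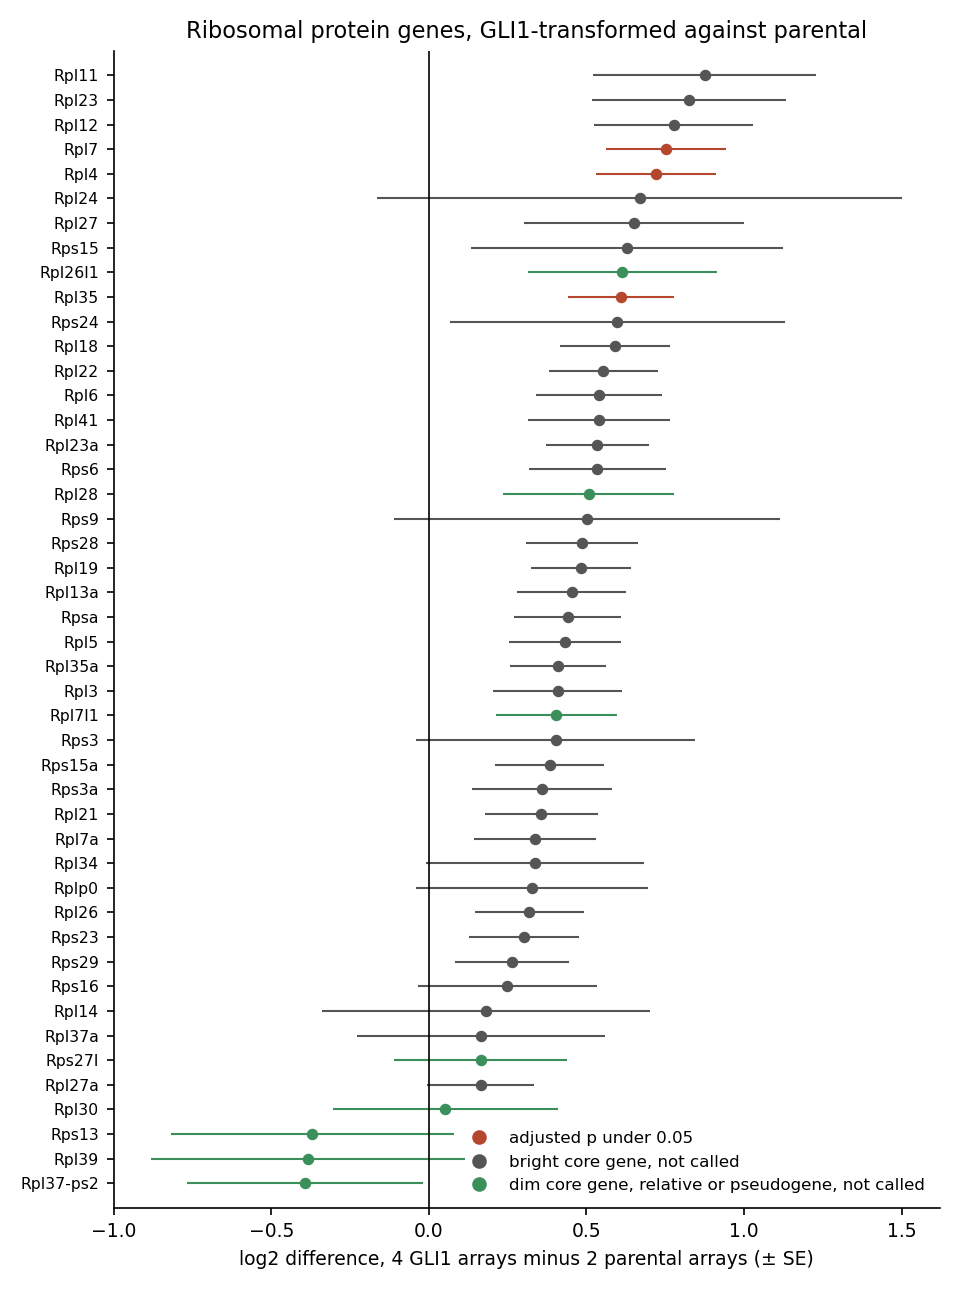
Log2 difference between the 4 GLI1 arrays and the 2 parental arrays for the 46 ribosomal protein genes tested, with bars of ± SE from limma. The 3 genes called (Rpl7, Rpl4 and Rpl35) are red, and 43 of the 46 points lie to the right of 0.

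By subunit, 3 of the 26 bright genes of the large subunit rose and 0 of the 12 of the small subunit. The median log2 difference was 0.51 in the large subunit and 0.42 in the small one. The difference between the subunits was not tested. Within the large subunit the genes with the largest differences were Rpl11 (0.87), Rpl23 (0.83) and Rpl12 (0.78), which did not pass the test and had larger SEs than the 3 genes called, and Rpl23 and Rpl12 are named after their values were seen.

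Rpl5 and Rpl11 form a particle with 5S ribosomal RNA that joins the large subunit and that, when free, binds the p53 regulator MDM2. Rpl11 read 64983, 58513, 38038 and 63314 on the GLI1 arrays, against 18862 and 47719 on the parental arrays. Clone II replicate 1 lay below parental replicate 2, so the groups overlapped, and the difference of 0.87 (SE 0.35) had a limma adjusted p of 0.141. Rpl5 read 120563, 108262, 116595 and 93311 on the GLI1 arrays, against 70232 and 93190 on the parental arrays. Its GLI1 values all lay above the parental ones, by a narrow margin for clone II replicate 2, and the difference was 0.43 (SE 0.18, limma adjusted p 0.144).

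The other genes with a role of their own were not called. Rps6, the substrate of the S6 kinases, read 112722, 105773, 103769 and 85897 on the GLI1 arrays, against 54341 and 90454 on the parental arrays, a difference of 0.53 (SE 0.22, limma adjusted p 0.142). Rpsa, a small-subunit protein also known as the laminin receptor precursor, read 76591, 65666, 71976 and 58050, against 45183 and 55098 on the parental arrays. Its difference was 0.44 (SE 0.17, limma adjusted p 0.126). Rpl22, a large-subunit protein that binds RNA outside the ribosome as well, had a difference of 0.55 (SE 0.17, limma adjusted p 0.0676), with all 4 GLI1 arrays (87380 to 125279) above both parental arrays (70470 and 76306). Rpl35a also showed no overlap, with a difference of 0.41 (SE 0.15, limma adjusted p 0.110). Rplp1, Rplp2, Rps27a, Rps19, Rpl10, Rpl38 and Rps14 were not analysed here.

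Clone II and the remaining GLI1 arrays were also set against the parental arrays apart from each other. In clone II, 0 of 46 genes were called by limma, with a background of 3.99% of all probe sets called higher and 5.74% lower, and 6 had a positive difference with an unadjusted p under 0.05, against 12.1% of all probe sets. The median log2 difference was 0.29, against -0.00883 over all probe sets, and 39 of 46 genes were positive, against 49.3%. In the other GLI1 arrays 1 gene rose, Rpl7 (0.84, SE 0.23, limma adjusted p 0.0463), with a background of 5.57% higher and 6.83% lower, and 23 genes had a positive difference with an unadjusted p under 0.05, against 13.6% of all probe sets. The median there was 0.59, against 0.016 over all probe sets, and 41 of 46 genes were positive, against 51.1%. Rpl7 had a difference of 0.66 (SE 0.23, limma adjusted p 0.113) in clone II. These comparisons share the parental arrays, so their directions are not independent.

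Compared directly, clone II and the other GLI1 arrays differed in 0 of the 46 genes by limma, with a background of 0.129% called in either direction, and 0 had an unadjusted p under 0.05, against 8.65% of all probe sets. The median was -0.19, and 4 of 46 differences were positive, against 49.1%, so 42 were lower in clone II. With each array left out in turn the median lay between -0.30 and -0.10.

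The spread between arrays of one group was not shared by all the genes. Clone II replicate 1 and parental replicate 1 were both low for the same subset, while the remaining arrays were close to each other. Rpl24, which forms a bridge between the subunits, read 35368, 35923, 6670 and 50590 on the GLI1 arrays, against 6984 and 37080 on the parental arrays. The low values were those of clone II replicate 1 and parental replicate 1, so the log2 gaps between replicate 1 and replicate 2 were -2.92 in clone II and -2.41 in the parental cells, and the group difference of 0.67 had an SE of 0.83.

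Rps9, a small-subunit protein near the entry of the messenger, had gaps of -1.83 in clone II and -1.98 in parental cells, with signals of 12493 and 11074 on those arrays and between 40625 and 44340 on the others. Rplp0, the base of the stalk that recruits elongation factors, read 76984, 78271, 36597 and 80053 on the GLI1 arrays, against 36539 and 73152 on the parental arrays. Rps3, at the entry of the messenger channel, read 87572, 82092, 33292 and 71378 on the GLI1 arrays, against 30673 and 77119 on the parental arrays. In both genes the high and the low arrays cut across the labels, with group differences of 0.33 (SE 0.37) for Rplp0 and 0.40 (SE 0.44) for Rps3. Without parental replicate 1 these became -0.17 for Rplp0 and -0.26 for Rps3, and -0.54 for Rpl24.

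Of the 38 bright core genes, 12 were lower by more than 0.5 on replicate 1 in both clone II and parental cells (31.6%). Among 709 other probe sets in the same range of mean signal the share was 5.78%. Over the 38 genes the gaps in clone II and in parental cells had a Pearson correlation of 0.87, given as a description, since all 38 points come from the same 4 arrays. By mean log2 signal, 0 of the 23 genes between 16 and 17 were among them, against 9 of 12 between 15 and 16 and all 3 between 14 and 15. That mean includes the low arrays themselves, so the ranges are not independent of the gaps. Among other probe sets the counts were 4 of 60, 10 of 253 and 50 of 888.

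The same 2 arrays had the highest GAPDH 3′ to 5′ signal ratios, a common measure of RNA integrity. The ratio was 7.52 on clone II replicate 1 and 3.66 on parental replicate 1, against 2.09, 1.45, 1.39 and 1.43 on the array with no clone named, clone I, clone II replicate 2 and parental replicate 2. The same ratio for beta-actin was higher on every array. It was 22.1 on clone II replicate 1 and 10.8 on parental replicate 1, and between 6.21 and 7.58 on the remaining arrays. With the log2 of the GAPDH ratio as a covariate the median difference between GLI1 and parental arrays stayed at 0.44. The mean log2 ratio was nearly equal in GLI1 and parental arrays, so this covariate could hardly move that difference. With it Rpl7, Rpl4 and Rpl11 were called, with a background of 6.22% of all probe sets called higher. Rpsa was measured by 3 probe sets, and they differed on these arrays. The one used above read 71976 on clone II replicate 1 and 58050 on clone II replicate 2, another read 8055 and 46284, and the third 11648 and 14573. On the parental arrays the one that was low on clone II replicate 1 read 12267 on replicate 1 and 52016 on replicate 2. The gaps thus differed between probe sets of the same gene, and the part of RNA integrity in them was not tested.

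**Figure D3:**
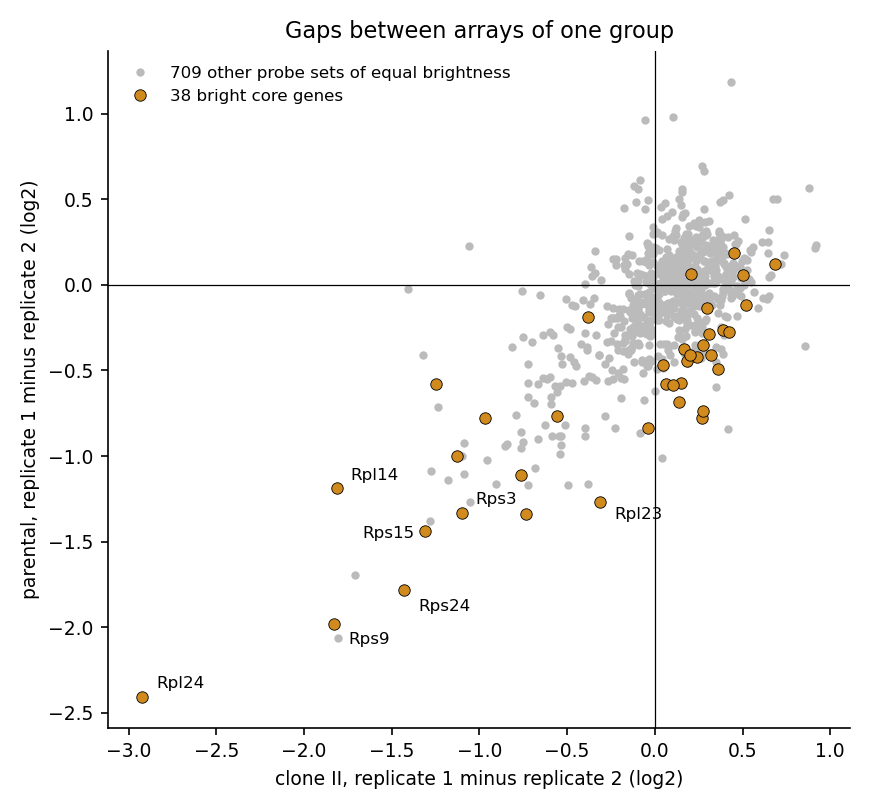
Log2 gap between replicate 1 and replicate 2 in clone II (horizontal) and in parental cells (vertical), for the 38 bright core genes in orange and for 709 other probe sets in the same range of mean signal in grey. Rpl24 lies farthest down and left, at -2.92 and -2.41, and 12 orange points are below -0.5 on both axes.

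The brightness of these genes raises the question of whether their signals were near the scanner's ceiling. The brightest of them read between 99345 and 150185 on the 6 arrays, and on each array the highest signal of any probe set was between 106850 and 167558. The bacteriophage cre control, spiked in at the highest amount, read 129016, 122882, 128698 and 103914 on the GLI1 arrays, against 104422 and 113162 on the parental arrays. Its ratio to the less abundant bioD control was 3.63, 3.81, 4.05 and 3.56 on the GLI1 arrays, against 3.37 and 3.54 on the parental arrays. The number of ribosomal protein genes brighter than the cre control was 5, 5, 3 and 6 on the GLI1 arrays, against 0 and 4 on the parental arrays.

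The 38 bright core genes had positive differences over their whole range of brightness. The median log2 difference was 0.48 for the 23 genes with a mean log2 signal between 16 and 17, 0.42 for the 12 between 15 and 16, and 0.50 for the 3 between 14 and 15. Other probe sets in these ranges had medians of 0.27, 0.23 and 0.15, and 83.3%, 74.3% and 63.1% of them were positive. The 4 dim core genes (Rpl28, Rpl30, Rpl39 and Rps13) had a median of -0.16, with 2 of 4 positive and 0 called by limma or at an unadjusted p under 0.05. Over the whole range of the bright core genes the other 709 probe sets had a median of 0.18, and 68.3% of them were positive, against a median of 0.47 and 100% for the 38 genes. The part of a scanner ceiling in these values was not tested.

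**Figure D4:**
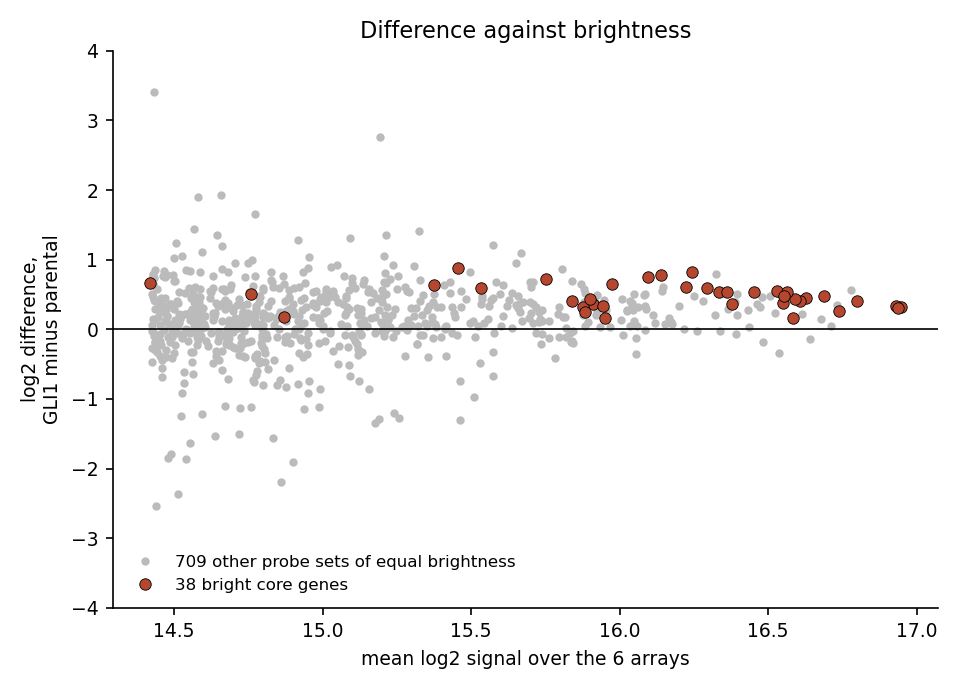
Log2 difference between GLI1 and parental arrays against mean log2 signal over the 6 arrays, for the 38 bright core genes in red and for 709 other probe sets in the same range of mean signal in grey. All 38 red points lie above 0, between 0.16 and 0.87.

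The scaling of the arrays moved the values in the whole group. Centring each array on its median gave a median of 0.60 for the 46 genes and 8 called, against a median of 0.17 over all probe sets and 7.81% of them called higher. Scaling to the hybridisation controls gave 0.34 and 0 called, with a median of -0.09 over all probe sets and 3.63% of them called higher. Quantile normalisation gave 0.19 and 2 called, with a median of 0.06 over all probe sets and 6.76% of them called higher. Over all probe sets, 1454 were called higher and 944 lower with median centring and 677 higher and 1376 lower with hybridisation control scaling, against 1087 higher and 1351 lower with the deposited scaling. Median centring and hybridisation control scaling shift all probe sets of an array alike. The gap between the median of the genes and that of all probe sets could therefore not change there. Quantile normalisation can change it, and the gap was smaller there, at 0.19 against 0.06, beside 0.44 against 0.00468 with the deposited scaling.

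**Figure D5:**
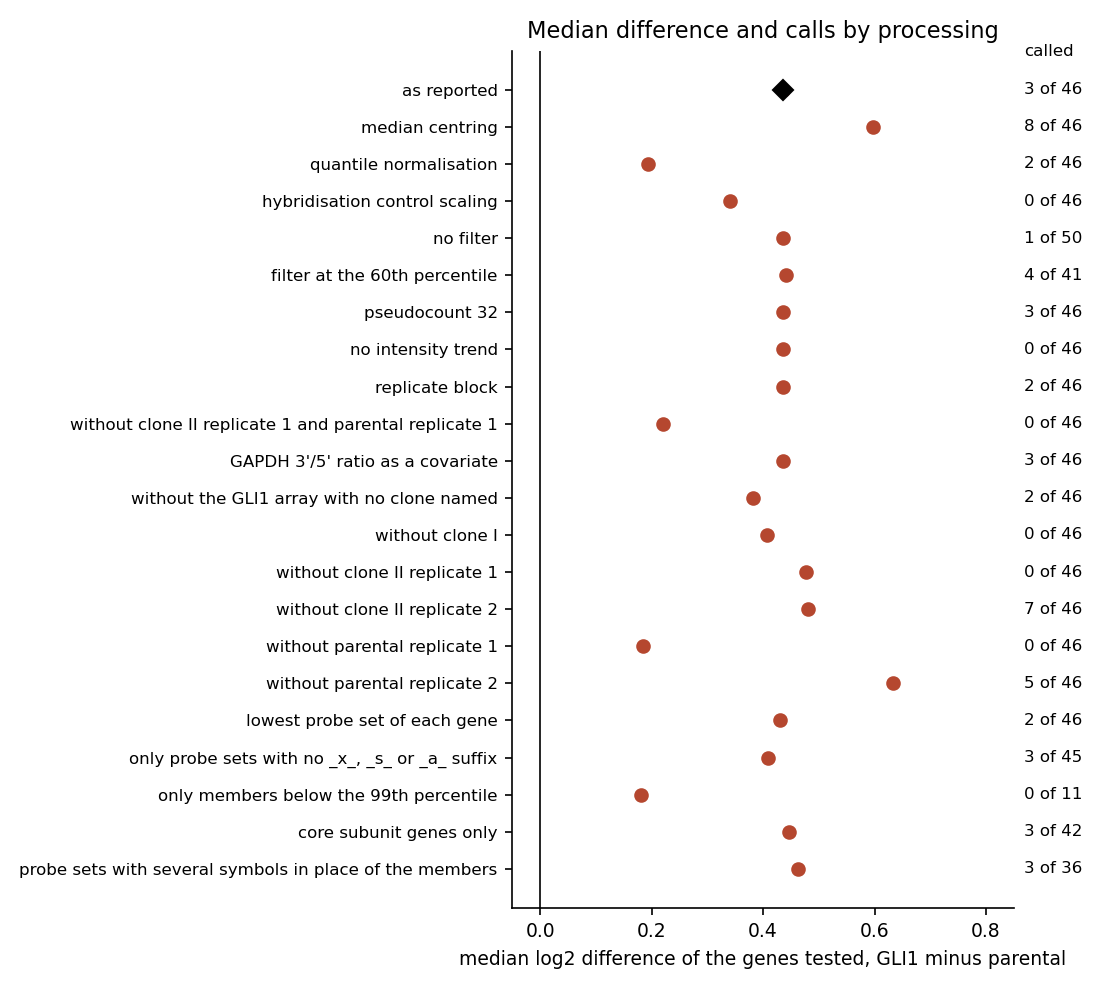
Median log2 difference between GLI1 and parental arrays of the ribosomal protein genes tested, under each way of processing, with the number called out of the number tested at the right. The value as reported is the black diamond (0.44, 3 of 46), and the others run from 0.18 to 0.63.

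The related genes were mostly dim. Rpl39l1, annotated as a relative of Rpl39, read 506, 1254, 290 and 282 on the GLI1 arrays, against 29.8 and 39.6 on the parental arrays. Its mean signal was under the filter, so it was not tested with the other genes. All 4 GLI1 values lay above both parental values. Without the filter its log2 difference was 3.80 (SE 0.73, limma adjusted p 0.0142), and with 32 added to every signal it was 2.95 (limma adjusted p 0.0232). The parental signals were far under the filter's cutoff of 322 and were not shown to be above background, so neither value is an exact fold. Rpl39 itself, a small protein of the exit tunnel, read 2345, 746, 1775 and 947 on the GLI1 arrays, against 2520 and 1158 on the parental arrays. Its difference was -0.38 (SE 0.50, limma adjusted p 0.666), and its groups overlapped.

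The call for Rpl39l1 rested on both parental arrays. With parental replicate 1 left out the difference was 3.59 (limma adjusted p 0.128), and with parental replicate 2 left out it was 4.00 (limma adjusted p 0.0827). It was the only one of the 50 genes called without the filter, where 3.1% of all 31042 probe sets were called higher.

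Rpl26l1, a relative of Rpl26, read 1900, 1145, 1231 and 1063 on the GLI1 arrays, against 805 and 895 on the parental arrays. The groups did not overlap, and the difference was 0.61 (SE 0.30, limma adjusted p 0.215), beside 0.32 (SE 0.17) for Rpl26. Rpl7l1, a relative of Rpl7, had a difference of 0.40 (SE 0.19, limma adjusted p 0.199), beside 0.75 for Rpl7. Rps27l, a gene that p53 can induce in human cells, had a difference of 0.16 (SE 0.28, limma adjusted p 0.747). Rpl3l, known from striated muscle, read between 35.2 and 188 on the GLI1 arrays and 27.0 and 223 on the parental arrays, and was under the filter, while Rpl3, near the catalytic centre, had a difference of 0.41 (SE 0.21, limma adjusted p 0.227). Rps4y2 (between 95.5 and 363 on the GLI1 arrays, 244 and 253 on the parental arrays) and Rps4x-ps1 (between 18.2 and 189 on the GLI1 arrays, 10.0 and 127 on the parental arrays) were also under the filter. A pseudogene or paralog probe set can take up transcripts of its parent gene, so these values are uncertain.

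The genes of ribosome production around the proteins were examined as lists. Of 31 genes of ribosome assembly, 10 rose, 0 fell and 21 were not called, against 5.84% of all probe sets called higher and 7.25% lower. The median log2 difference was 0.59, against 0.00468 over all probe sets, and 29 of 31 were positive, against 50.3%. Polr1a, the largest subunit of RNA polymerase I, read 5073, 5637, 5486 and 6083 on the GLI1 arrays, against 2426 and 2410 on the parental arrays, a difference of 1.20 (SE 0.18, limma adjusted p 0.00356). Its groups were far apart, and the parental arrays were close to each other. Polr1b, the second largest subunit, had a difference of 1.14 (SE 0.20, limma adjusted p 0.00839). Nop2, a nucleolar methyltransferase, read 10647, 8441, 8269 and 10549 on the GLI1 arrays, against 4292 and 5139 on the parental arrays, with a limma adjusted p of 0.0110. Wdr12, of the assembly complex with Pes1 and Bop1, was 2.01-fold higher (log2 SE 0.21, limma adjusted p 0.0158). In both of these genes every GLI1 array lay above both parental arrays. Without parental replicate 1, 0 of the 31 were called, with a median of 0.53, and 0 genes of the lists below were called either. Without parental replicate 2, 2 of the 31 were called and 0 of the lists below.

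Rack1, a scaffold protein on the small subunit that is no ribosomal protein by name, read 113784, 102670, 97335 and 82245 on the GLI1 arrays, against 49962 and 65008 on the parental arrays, a difference of 0.79 (SE 0.18, limma adjusted p 0.0240). Its groups did not overlap. Among 10 tested elongation factors and other TOP transcripts 1 rose, Eif4b (0.79, SE 0.16, limma adjusted p 0.0149), and 0 fell, against 5.84% of all probe sets called higher and 7.25% lower, so 1 of 10 is near that share. All 10 were positive, against 50.3% of all probe sets, and the median was 0.50, against 0.00468. Eef1g (0.55, limma adjusted p 0.0950) and Eef1d (0.69, limma adjusted p 0.100), both of the elongation factor 1 complex, were not called.

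Of 13 tested genes that control TOP translation 3 rose and 0 fell, against 5.84% of all probe sets called higher and 7.25% lower, with a median of 0.29 against 0.00468. Larp1, the TOP-binding repressor, had signals between 23848 and 26464 on the GLI1 arrays, against 14807 and 14853 on the parental arrays, a difference of 0.76 (SE 0.15, limma adjusted p 0.0105). Eif4ebp1 (1.37, SE 0.31, limma adjusted p 0.0216) and Eif4ebp2 (0.78, SE 0.18, limma adjusted p 0.0213), repressors of cap-dependent translation, also rose. Eif4e (0.49, limma adjusted p 0.0745) and Myc (-0.98, limma adjusted p 0.191), a transcription factor that drives ribosome production, were not called.

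Of 7 tested S6 kinase genes 1 rose and 1 fell, near the 5.84% and 7.25% of all probe sets called higher and lower, with a median of 0.31 against 0.00468. Rps6ka6 had a difference of 1.23 (SE 0.26, limma adjusted p 0.0154) and Rps6ka4 of -1.02 (SE 0.24, limma adjusted p 0.0238). Rps6kb1, the main S6 kinase downstream of mTOR, had 0.31 (limma adjusted p 0.314). Of 8 tested genes around p53 and its regulator 2 rose and 0 fell, against the same 5.84% and 7.25%, with a median of 0.05 against 0.00468. They were Bbc3, a pro-apoptotic p53 target (1.07, SE 0.20, limma adjusted p 0.00896), and Sesn2, a stress-induced inhibitor of mTOR (1.30, SE 0.30, limma adjusted p 0.0227). Cdkn1a (0.20, limma adjusted p 0.818) and Mdm2 (-0.05, limma adjusted p 0.923) were not called.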

How the data were processed

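RNA of 6 samples of rat RK3E cells was measured on Affymetrix arrays. The deposited values are MAS5 signal intensities, 1 per probe set and array, per the submitters' processing notes, in a version not given in these sources. Their trimmed means were equal in the file. Of 31099 probe sets, 57 controls were set aside. Values were floored at 1 and log2-transformed, and probe sets with a mean in the lowest 40 percent were left out of the test, which kept 18625. Groups were compared in limma 3.58.1 (R 4.3.3; lmFit and two-sided eBayes tests with an intensity trend), adjusting p-values over all 18625 by Benjamini-Hochberg. A 2-level model compared GLI1 with parental arrays and a 3-level model compared clone II, the other GLI1 arrays and the parental arrays. The fit was tested on simulated data.

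Gene names came from the platform annotation, of which 48 of 50 members matched RefSeq by identifier. Sequences are from RefSeq, GRCr8. The members and lists were chosen with earlier results of these data known. Named with values are the genes called, those brightest, dimmest and of largest and smallest spread, genes with a role of their own, related genes beside their partner, and up to 6 genes of each list, with others said to be chosen after their values were seen. Alternatives were other scalings, filters, a pseudocount of 32, no intensity trend, a replicate block, leaving out arrays and other choices of probe set. The GAPDH covariate, the core genes alone, the probe sets of several symbols, and the alternatives run together with no filter were chosen after seeing the data. The number of arrays limits the precision. The labels do not say whether replicate numbers pair the samples, and they were not taken as pairs. Per-sample columns not used numbered 0.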

Additional observations from a re-analysis of the deposited data

Results flagged for a closer look

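In 8 of the 50 genes 1 of the 4 GLI1 arrays lay far from the other 3 on the log2 scale by Dixon's test, which chance alone does in about 1 in 20 genes, and the genes share their arrays. All 8 were low values. Clone II replicate 1 was the low array for 6 genes, at 13.61 for Rpl14 (15.31 to 15.43 on the other GLI1 arrays), 15.23 for Rpl34 (16.20 to 16.40), 14.96 for Rpl37a (16.21 to 16.45), 15.16 for Rplp0 (16.23 to 16.29), 14.65 for Rps24 (16.01 to 16.20) and 13.61 for Rps9 (15.31 to 15.44). Clone II replicate 2 was the low array for Rps15a, at 16.38 (16.74 to 16.81), and for Rps28, at 16.37 (16.80 to 16.87). Rpl14 and Rps24 each had a dimmer probe set, on which clone II replicate 1 was not the low array. There clone II replicate 1 read 9.26 for Rpl14 (8.25 to 9.06 on the other GLI1 arrays) and 11.39 for Rps24 (10.18 to 11.96).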

How the results depend on the processing

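With 2 parental arrays, the calls rest on few arrays. Between GLI1 and parental arrays, 3 genes were called and the median was 0.44. The count was 8 with median centring, 0 with hybridisation control scaling, 0 with no intensity trend, 0 without clone II replicate 1 and parental replicate 1 together, 0 among the 11 genes below the 99th percentile of brightness, and 1 with no filter (Rpl39l1). The median was 0.19 with quantile normalisation, 0.22 without those 2 arrays and 0.18 among the 11 genes. With each array left out in turn the count ran from 0 to 7 and the median from 0.18 to 0.63.

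Between clone II and parental arrays, 0 genes were called and the median was 0.29. The count was 1 with no filter and 2 of 36 with the probe sets of several symbols, and the median was 0.52 with median centring. Leaving out arrays gave counts from 0 to 1 and medians from 0.11 to 0.51. Between the other GLI1 arrays and the parental arrays, 1 gene was called and the median was 0.59. With no filter 1 gene was called as well, Rpl39l1 (limma adjusted p 0.00766) in place of Rpl7 (limma adjusted p 0.0919). The count was 2 with median centring, 2 with a filter at the 60th percentile, 3 with the probe sets of several symbols, and 0 with quantile normalisation, hybridisation control scaling, no intensity trend, the lowest probe set of each gene, the 11 dimmer genes, or without both replicate 1 arrays. The median was 0.26 with quantile normalisation, 0.27 among the 11 genes and 0.29 without both replicate 1 arrays. Leaving out arrays gave counts from 0 to 6 and medians from 0.29 to 0.78. Clone II and the other GLI1 arrays differed in 0 genes under each of these alternatives. Where an arm kept 1 array, its spread was assumed to be that of the other groups.

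The replicate numbers are shared by the groups. Their deviations correlated at 0.32 for clone II with parental cells and at 0.10 for clone II with the GLI1 arrays outside it. For those GLI1 arrays with parental cells the value was 0.07. Over the 38 bright core genes, however, the replicate gaps of clone II and parental cells correlated at 0.87 (Pearson). These values therefore cannot decide whether replicate numbers pair the samples, which was not tested. The numbers were not taken as pairs. With a replicate block 2 genes were called between GLI1 and parental arrays (Rpl7 and Rpl4), 0 in clone II and 4 in the other GLI1 arrays. Every group holds both replicate numbers equally, so the block could not move the medians.

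Single genes changed sign in places, and 0 of these were called. Rpl27a was -0.14 and Rps29 -0.015 with quantile normalisation, and Rpl30 was -0.042 with hybridisation control scaling. Without both replicate 1 arrays Rpl27a was -0.029, Rpl30 -0.098 and Rpl39 0.031. With no filter Rpl3l was -0.028 with a pseudocount of 32, -0.36 without the array with no clone named, -0.33 without clone I and -1.47 without parental replicate 1, and Rps4x-ps1 was -0.14 without the array with no clone named and -1.34 without parental replicate 1. With each array left out in turn the difference ran from -0.54 to 1.87 for Rpl24, -0.012 to 0.34 for Rpl27a, -0.043 to 0.16 for Rpl30, -0.94 to 0.18 for Rpl39, -0.17 to 0.83 for Rplp0, -0.052 to 0.38 for Rps27l and -0.26 to 1.07 for Rps3. The cause of these changes was not tested.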
